A study of Mus musculus with 8 samples.

Results

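The subunits of oxidative phosphorylation were followed by 80 of the 23473 gene probes on the array. They were taken by gene symbol alone: symbols that start with Nduf and then a, b, c, s or v, with Uqcr, with Cox and then a digit of 4 to 8, or with Atp5, and Sdha, Sdhb, Sdhc and Sdhd. These probes stand for 79 symbols, because Ndufs5 has 2 probes. By symbol, 36 probes belong to complex I, 4 to complex II, 7 to complex III, 17 to complex IV and 16 to complex V. The symbols also bring in 4 probes for proteins that are not structural subunits. Ndufaf1 is an assembly factor of complex I, Cox7a2l helps to join complexes into supercomplexes, Atp5s (now Dmac2l) is a factor associated with ATP synthase, and Cox4nb (now Emc8) belongs to a complex of the endoplasmic reticulum. Ndufa4, counted with complex I by its name, is today placed in complex IV.

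Gene expression was measured in embryoid bodies grown from a mouse embryonic stem cell line, iTbx6 T-GFP, in which doxycycline (Dox) induces the mesodermal T-box factor Tbx6. The groups were Dox-on day 4, Dox-off day 4, Dox-on day 2 and Dox-off day 2 embryoid bodies, with 2 single-colour arrays in each and 8 in all. All were kept in a serum-free differentiation medium to which no growth factor was added. Those of day 4 were dissociated and reaggregated on the way, and the part of this step in the comparisons of time was not tested. The labels give neither the time of Dox addition nor the origin of the replicates. The p-values therefore cover the variation among these samples alone, and that variation may be technical. All groups carry the transgene and none of the cells given Dox lack it, so Dox itself and Tbx6 induction cannot be told apart. In RNA from whole embryoid bodies, fewer cells of a type and less RNA per cell cannot be told apart either.

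Complexes I and II pass electrons from NADH and succinate to ubiquinone, complex III hands them on to cytochrome c, and complex IV gives them to oxygen. Complexes I, III and IV pump protons across the inner mitochondrial membrane, and complex V, the ATP synthase, lets them flow back to make ATP. Most subunits are encoded in the nucleus and are made in every cell, while complex IV also has isoforms restricted to heart and skeletal muscle, testis or low oxygen. Pluripotent cells are known for a strong use of glycolysis beside respiration, and the balance shifts as they differentiate.

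Levels are given as log2 intensity after subtraction of the mean of the empty (blank) spots and quantile normalization between arrays, and changes as differences of these levels. All 80 probes were among the 21661 tested, and 78 of them lay above the blank spots on all 8 arrays. The exceptions were Uqcrq, a small subunit of complex III, above background on 2 arrays, and Cox8c, the testis isoform of the complex IV subunit VIII, above background on 4. Arrays of a group correlated at 0.993 or more over all probes, and arrays of different groups at 0.985 or less. The blank spots averaged 56.9 and 57.5 intensity units on the Dox-on day 4 arrays, 58.2 and 60.9 on the Dox-off day 4 arrays, 52.3 and 52.9 on the Dox-on day 2 arrays, and 53.5 and 54.1 on the Dox-off day 2 arrays. This level separates all 4 groups, and its part in the results was not tested. The Tbx6 probe itself changed by 0.62 with Dox at day 4 (limma, adjusted p = 0.00915) and by -0.20 at day 2 (adjusted p = 0.395). Whether this probe lies within the transgene is not known here, so these values do not measure induction.

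Nuclear genes of the respiratory chain are known to share a few promoter motifs, so their promoters were searched in RefSeq windows of 300 bases (GRCm38.p6, 250 before and 50 after the gene start), on both strands. Of the 79 symbols, 65 matched, with 70 windows, and they were set beside all 32851 windows. The core of the NRF1 site (GCGCATGC) was in 14.3% of member windows and in 2.71% of all windows. The ETS site bound by GABPA (CCGGAAG) was in 22.9% of member windows and in 8.86% of all, and a YY1 site (AAGATGGCG) in 10% and in 1.4%. A CCAAT box (CCAAT) was in 40.0% of member windows and in 37.4% of all, and a TATA box (TATAAA) in 10% and in 13.6%. A match describes letters in the window and says nothing of binding. The windows below belong to 5 members whose change with Dox at day 4 is described further on, Atp5l, Atp5g1, Ndufs8 and Cox6b2 having risen and Ndufc1 having fallen. Each is printed 5′ to 3′ along its gene, all on the minus strand, with motif letters of either strand in capitals.
Atp5l, chr9:44920693-44920992, with the NRF1 core, 2 ETS sites, a CCAAT box and a TATA box: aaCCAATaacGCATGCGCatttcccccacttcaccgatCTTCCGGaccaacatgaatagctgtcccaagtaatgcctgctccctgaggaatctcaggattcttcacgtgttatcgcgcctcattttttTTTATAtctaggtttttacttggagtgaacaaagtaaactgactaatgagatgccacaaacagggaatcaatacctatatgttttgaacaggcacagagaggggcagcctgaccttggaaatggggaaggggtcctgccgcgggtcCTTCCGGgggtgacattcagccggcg
Atp5g1, chr11:96075582-96075881, with 5 CCAAT boxes, of which a pair on opposite strands overlaps: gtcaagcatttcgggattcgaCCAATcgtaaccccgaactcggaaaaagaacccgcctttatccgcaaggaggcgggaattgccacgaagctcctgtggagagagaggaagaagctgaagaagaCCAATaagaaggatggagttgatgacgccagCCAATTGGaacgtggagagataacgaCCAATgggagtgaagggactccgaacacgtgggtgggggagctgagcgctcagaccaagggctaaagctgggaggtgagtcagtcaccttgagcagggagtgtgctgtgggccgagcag
Ndufs8, chr19:3912725-3913024, with an ETS site and 3 CCAAT boxes: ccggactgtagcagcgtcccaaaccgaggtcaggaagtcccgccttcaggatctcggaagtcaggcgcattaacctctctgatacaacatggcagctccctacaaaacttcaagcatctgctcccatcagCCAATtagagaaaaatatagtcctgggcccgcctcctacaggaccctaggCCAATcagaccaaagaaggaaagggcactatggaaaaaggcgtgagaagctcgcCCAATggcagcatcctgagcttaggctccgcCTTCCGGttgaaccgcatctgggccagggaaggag
Cox6b2, chr7:4753045-4753344, with 3 CCAAT boxes: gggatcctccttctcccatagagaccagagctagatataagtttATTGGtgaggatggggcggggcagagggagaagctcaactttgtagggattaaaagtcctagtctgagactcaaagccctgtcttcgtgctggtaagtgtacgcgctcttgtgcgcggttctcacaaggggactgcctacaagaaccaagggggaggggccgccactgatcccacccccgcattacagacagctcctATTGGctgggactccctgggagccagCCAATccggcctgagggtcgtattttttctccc
Ndufc1, chr3:51408906-51409205, with a YY1 site: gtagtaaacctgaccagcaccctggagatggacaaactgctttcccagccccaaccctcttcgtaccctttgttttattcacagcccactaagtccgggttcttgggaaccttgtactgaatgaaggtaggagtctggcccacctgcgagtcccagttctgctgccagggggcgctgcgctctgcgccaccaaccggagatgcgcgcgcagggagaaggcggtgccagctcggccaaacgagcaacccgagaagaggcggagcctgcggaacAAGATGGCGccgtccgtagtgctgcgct

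Most members varied by less than 1 log2 unit over the 8 arrays. The range from a probe's lowest to its highest array had a median of 0.58 log2 units among the members and 0.80 among all probes tested. It stayed under 1 for 66 members and reached at least 1 for 14. The members' median level was 10.88 to 11.08 on the 8 arrays, and the part of signal level in the range was not tested. By calls the members were not steadier everywhere, with 40% called for time without Dox, against 38.1% of all probes. Sdha, the flavoprotein subunit of complex II that oxidises succinate, had the narrowest range, from 10.32 to 10.45. Atp5b, the catalytic beta subunit of ATP synthase, was also steady, between 13.39 and 13.63. The members' mean was 10.32 and 10.35 on the Dox-on day 4 arrays, 10.17 and 10.13 on the Dox-off day 4 arrays, 10.25 and 10.22 on the Dox-on day 2 arrays, and 10.34 and 10.35 on the Dox-off day 2 arrays. The mean was thus lowest in Dox-off day 4 embryoid bodies, and higher with Dox at day 4 but lower with Dox at day 2.

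**Figure D1:**
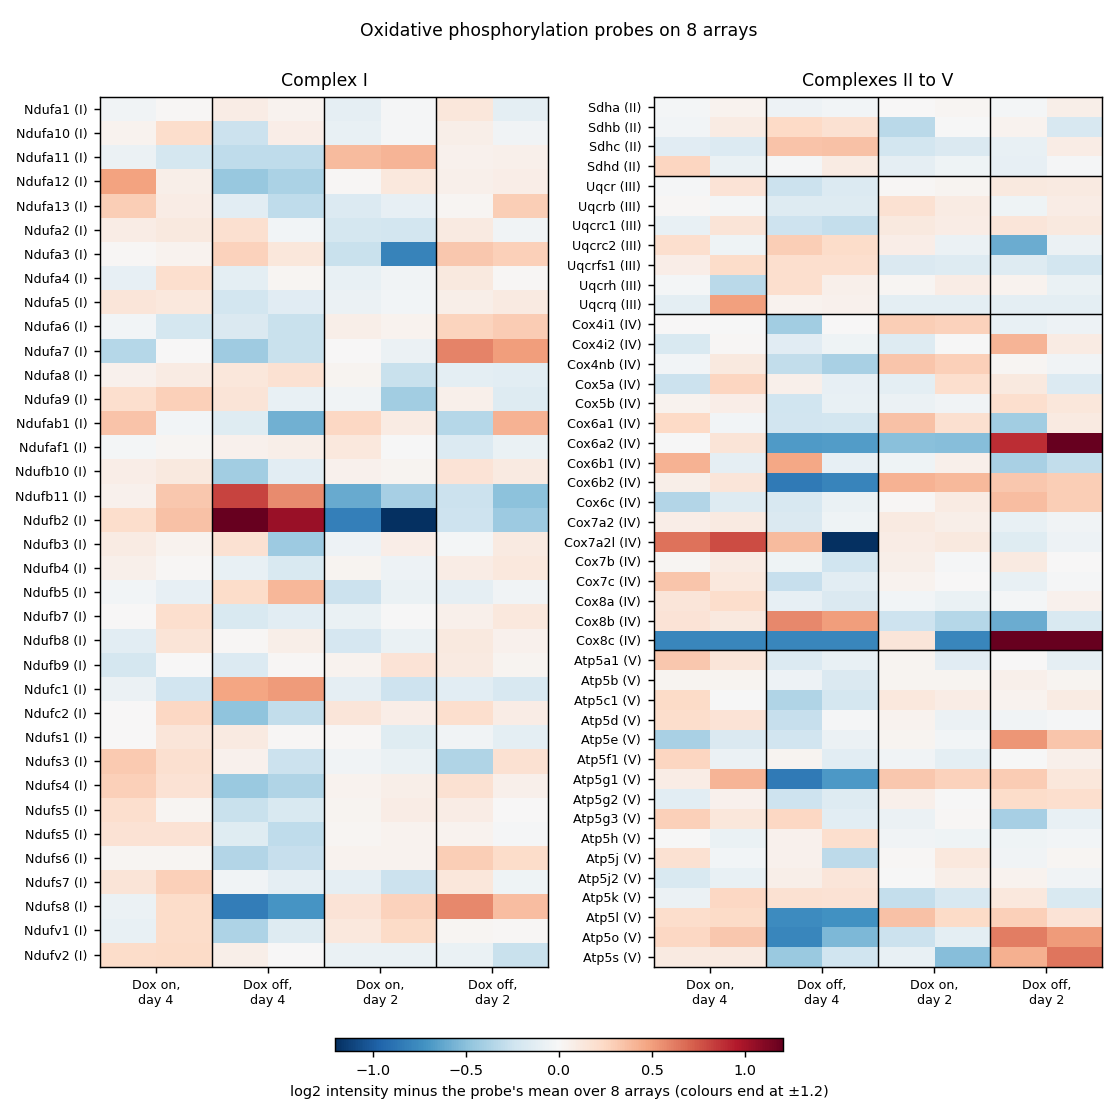
Heat map of the 80 probes (rows, with the complex in brackets) on 8 arrays (columns, 2 per group). Colour is log2 intensity minus the probe's mean over the 8 arrays, with colours ending at ±1.2. Most rows are pale, while Cox6a2, Cox8c, Ndufb2, Ndufb11 and Cox7a2l show strong colours on some arrays.

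With Dox at day 4 more members were called higher than lower, and a member not called is not shown to be unchanged. A member was called where limma's adjusted p over all 21661 probes was under 0.05, and 17 members rose, 4 fell and 59 were not called. Over all probes tested 29.9% were called, 14.4% higher and 15.5% lower. The members' shares were 21.2% higher and 5.0% lower, so the share called higher was above that of all probes and the share called lower below it. The first of these depended on the fit. Members called higher were 8.75% in a fit of the day 4 arrays alone (10.9% of all probes), 11.2% without the second Dox-on day 4 array (11.4%) and 11.2% without the first Dox-off day 4 array (11.7%). The share called lower in these fits was 2.5% to 5% of members and 11.5% to 11.9% of all probes. The median change of the members was 0.18, against -0.04 over all probes. The 2 arrays of each group did not overlap and lay higher with Dox for 52.5% of the members and lower for 18.8%, against 28.4% and 34.5% of all probes. The changes were small, since 1 of the 21 calls was of at least 2-fold (Atp5g1).

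With Dox at day 2 the members called had all fallen, though 2 rose beside 9 that fell with no background correction, and 2 beside 8 with an intensity trend in the variance. No member rose, 7 fell and 73 were not called by limma (an unadjusted p under 0.05 was reached by 14 members). Over all probes 11.8% were called, 5.55% higher and 6.25% lower, and the members' share called lower, 8.75%, was near that background. The median change was -0.02, against -0.01 over all probes. Groups did not overlap and lay higher with Dox for 16.2% of the members and lower for 37.5%, against 25.5% and 27.1% of all probes. The comparisons at day 4 and day 2 share no arrays. Of the 80 members, 15 rose at day 4 alone, 3 fell at day 4 alone, 4 fell at day 2 alone, Atp5o and Cox6a2 rose at day 4 and fell at day 2, and Ndufb2 fell at both.

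The difference between the Dox effects, day 4 minus day 2, was tested in the same limma fit. It was positive for 13 members and negative for 1 (Ndufc1), with 22.1% of all probes called, 11.1% positive and 11% negative. Its median was 0.26 among the members and -0.04 over all probes. Of the positive ones, Cox8c stood at the floor on all day 4 arrays, so its difference is its day 2 change with the sign turned. The negative call was lost with no background correction, with cyclic loess, with an intensity trend and on leaving out any of 6 arrays (adjusted p up to 0.0829).

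Time was compared within each Dox state, and these comparisons share arrays with those of Dox. In Dox-on embryoid bodies 4 members rose and 1 fell at day 4 against day 2, while 19% of all probes were called, 9.63% higher and 9.33% lower. The members' share called was 6.25%, below that background. Groups did not overlap and lay higher at day 4 for 37.5% of members and lower for 15% (29.1% and 27.4% of all probes). In Dox-off embryoid bodies 8 members rose and 24 fell, while 38.1% of all probes were called, 20.2% higher and 17.9% lower. Here the members' share called lower was 30.0%, above the background, and the share called higher was 10%, below it. Without the first Dox-off day 2 array the share called lower was 15% of members and 14.5% of all probes, and without the first Dox-off day 4 array it was 17.5% and 15.2%. The median change was -0.15 among members and 0.04 over all probes. Groups did not overlap and lay higher at day 4 for 23.8% of members and lower for 50% (36% and 30.3% of all probes).

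These counts depend on how background was removed. With normexp on the scanner's second intensity column, 0 members were called by limma in each of the 5 comparisons, with an unadjusted p under 0.05 for 3 members for Dox at day 4 and for 1 member in each other comparison. That setting called 0 to 3 of all 21661 probes in a comparison, and the second column tracked the spot itself (correlation of logs 0.984 to 0.998). With no background correction, 37 members were called for Dox at day 4 and 11 at day 2.

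**Figure D2:**
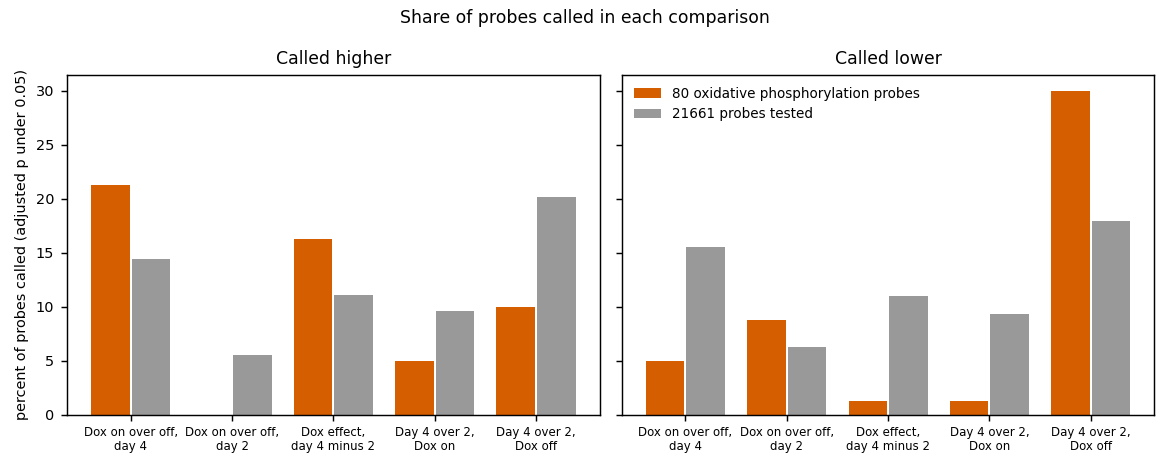
Percent of probes called higher (left) and lower (right) in each comparison, for the 80 members (orange) and the 21661 probes tested (grey). The orange bar stands above the grey one for rises with Dox at day 4 (21.2% against 14.4%) and for falls with time without Dox (30.0% against 17.9%). It also does so for a positive difference of the Dox effect (16.2% against 11.1%) and for falls with Dox at day 2 (8.75% against 6.25%).

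**Figure D3:**
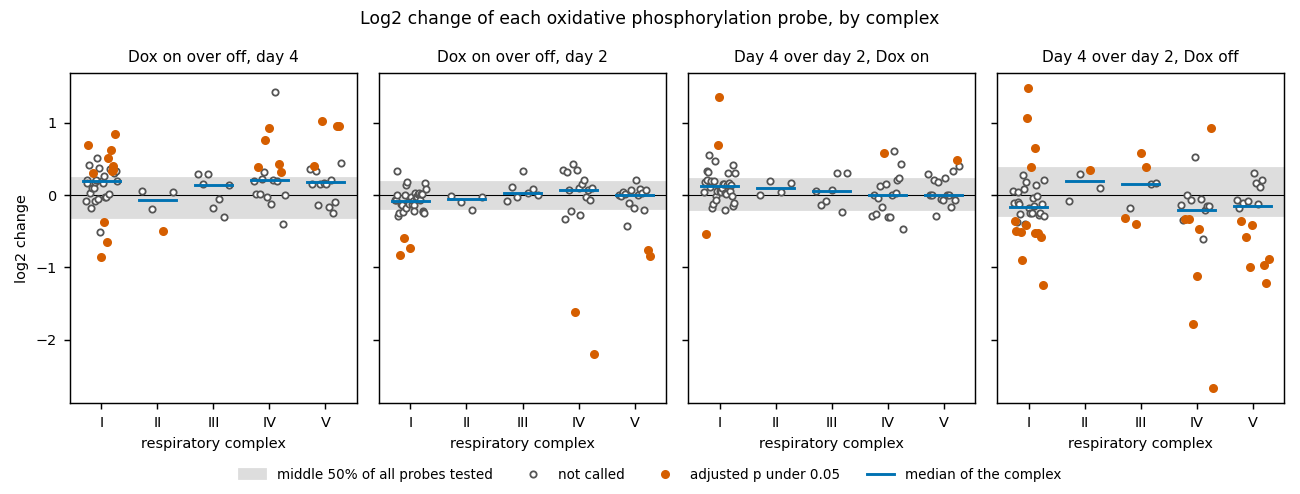
Log2 change of each member (points) by respiratory complex in 4 comparisons, with changes of adjusted p under 0.05 filled, the median of each complex as a line and the middle 50% of all probes as a grey band. At day 4 with Dox the medians of complexes I, III, IV and V lay between 0.14 and 0.21 and that of complex II at -0.07.

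In complex I, 8 of 36 probes rose and 3 fell with Dox at day 4, and 3 fell at day 2. The shares called in either direction were 30.6% and 8.33%, against 29.9% and 11.8% of all probes. By direction, all probes were called higher in 14.4% and lower in 15.5% at day 4, and in 5.55% and 6.25% at day 2. The core subunits, which carry the flavin and the iron-sulphur clusters, were represented by Ndufs1, Ndufs3, Ndufs7, Ndufs8, Ndufv1 and Ndufv2. Of these 6, 1 rose with Dox at day 4 (16.7%, against 14.4% of all probes called higher). Ndufs8 (probe M300004360), which holds a pair of iron-sulphur clusters near the ubiquinone site, read 8.89 and 9.18 in Dox-on day 4 embryoid bodies, against 8.13 and 8.25 in Dox-off day 4 embryoid bodies. At day 2 it read 9.12 and 9.24 with Dox, against 9.54 and 9.33 without. The Dox-off day 4 arrays stood below all others, and the day 2 arrays with Dox lay just below those without. Ndufs8 was 1.79-fold higher with Dox at day 4 (log2 change 0.84 ± 0.14 SE, n = 2 arrays each, limma, adjusted p = 0.00411), and at day 2 its change of -0.25 ± 0.14 did not pass (adjusted p = 0.33). From day 2 to day 4 it fell by 1.24 on the log2 scale without Dox (adjusted p = 0.000502), and with Dox its change was -0.15 (adjusted p = 0.529). The other 5 core subunits were not called in any comparison. Their changes with Dox at day 4 lay between 0.01 (Ndufs1) and 0.36 (Ndufs3). Ndufv2, part of the module that takes electrons from NADH, read 12.50 and 12.51 with Dox and 12.35 and 12.29 without at day 4.

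Among the 29 accessory probes of complex I, which surround the core and serve in assembly and stability, 7 rose and 3 fell with Dox at day 4. That is 34.5% called, against 29.9% of all probes. Those that rose were Ndufa12, Ndufs4, Ndufc2, both probes of Ndufs5, Ndufs6 and Ndufa5, with changes of 0.31 to 0.69. Of these 7 calls, that of Ndufs4 held on leaving out each array in turn, and the others were lost in 2 to 8 of the 8 fits (adjusted p up to 0.182). Ndufs4, which is added late in assembly and is mutated in human Leigh syndrome, read 11.22 and 11.11 in Dox-on day 4 embryoid bodies, against 10.49 and 10.58 in Dox-off day 4 embryoid bodies. The groups were well apart, and Ndufs4 was 1.55-fold higher (log2 change 0.63 ± 0.10, limma, adjusted p = 0.0036). The day 2 arrays lay between 10.98 and 11.12 and overlapped between Dox states. The Ndufs5 probes gave changes of 0.34 and 0.41. Ndufa12 had the widest spread of these, with 12.38 and 11.97 in Dox-on day 4 embryoid bodies against 11.44 and 11.52 in Dox-off day 4 embryoid bodies.

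The accessory subunits that fell with Dox at day 4 were Ndufc1, Ndufb2 and Ndufb5. Ndufc1 (probe M400001989) read 3.31 and 3.15 in Dox-on day 4 embryoid bodies, against 3.86 and 3.89 in Dox-off day 4 embryoid bodies. It lay between 3.13 and 3.27 on the 4 arrays of day 2, so the Dox-off day 4 arrays stood above the rest. Ndufc1 was 1.56-fold lower with Dox at day 4 (log2 change -0.64 ± 0.11, limma, adjusted p = 0.00415). Without Dox it rose by 0.65 from day 2 to day 4 (adjusted p = 0.00291). Its signal is dim, only a few units of log2 above the floor of 1.04. Ndufb2 (probe M200006474) read 6.03 and 6.17 in Dox-on day 4 embryoid bodies, against 7.05 and 6.86 in Dox-off day 4 embryoid bodies. At day 2 it read 5.0 and 4.5 with Dox, against 5.57 and 5.38 without. It was lower with Dox and higher at the later day, with no overlap in any of the 4 comparisons. The changes with Dox were -0.85 ± 0.18 at day 4 (limma, adjusted p = 0.0122) and -0.73 ± 0.18 at day 2 (adjusted p = 0.0467). The changes with time were 1.35 with Dox (adjusted p = 0.00273) and 1.48 without (adjusted p = 0.000784). The Dox calls of Ndufb2 were lost on leaving out either of 2 arrays at day 4 (the first replicates with and without Dox, adjusted p up to 0.076) and any of 7 arrays at day 2 (adjusted p up to 0.202). Ndufb5 changed by -0.38 with Dox at day 4 (adjusted p = 0.0421), a call lost on leaving out any of 6 arrays (adjusted p up to 0.162).

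Ndufb11, an X-linked subunit of the membrane arm, followed time. It read 7.58 and 7.85 in Dox-on day 4 embryoid bodies, against 6.92 and 7.13 in Dox-on day 2 embryoid bodies. Without Dox it read 8.34 and 8.10 at day 4, against 7.27 and 7.04 at day 2. Day 4 lay above day 2 in both Dox states, by 0.69 with Dox (limma, adjusted p = 0.0244) and by 1.07 without (adjusted p = 0.00183). The call with Dox was lost on leaving out either Dox-on day 2 array or the second Dox-on day 4 array (adjusted p up to 0.129). With Dox at day 4 its change was -0.50 (adjusted p = 0.0511). Ndufa11, another membrane-arm subunit, read 10.42 and 10.28 in Dox-on day 4 embryoid bodies, against 10.87 and 10.90 in Dox-on day 2 embryoid bodies. It was the 1 member that fell with time under Dox (log2 change -0.53 ± 0.09, limma, adjusted p = 0.00898). The call was lost without the second Dox-on day 2 array (adjusted p = 0.0533). Without Dox it changed by -0.36 (adjusted p = 0.0208), a call lost on leaving out any of the 4 arrays compared (adjusted p up to 0.0751).

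At day 2 the falls with Dox in complex I were those of Ndufb2, Ndufa7 and Ndufa3. Ndufa3 read 3.86 and 3.33 in Dox-on day 2 embryoid bodies, against 4.45 and 4.41 in Dox-off day 2 embryoid bodies. The Dox-on arrays were lower and apart from each other, and the change was -0.83 ± 0.17 (limma, adjusted p = 0.0258). The call was lost on leaving out any array but the first Dox-on day 2 one (adjusted p up to 0.121), and without the filter on dim probes. Ndufa7 read 11.87 and 11.80 in Dox-on day 2 embryoid bodies, against 12.46 and 12.37 in Dox-off day 2 embryoid bodies. Without Dox it was lower again at day 4, with 11.44 and 11.60, a change of -0.90 from day 2 (adjusted p = 0.00225). Its fall with Dox at day 2 was -0.59 (adjusted p = 0.0383), a call lost on leaving out any of 6 arrays (adjusted p up to 0.168).

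In complex II, which is also an enzyme of the citrate cycle, 1 of 4 probes was called with Dox at day 4 and 0 at day 2 by limma (unadjusted p under 0.05 also for 1 and 0). These shares of 25% and 0% stand beside 29.9% and 11.8% of all probes. Sdhc (probe M200004326), a membrane anchor of the complex, read 10.29 and 10.26 in Dox-on day 4 embryoid bodies, against 10.77 and 10.78 in Dox-off day 4 embryoid bodies. Both Dox-off arrays lay above the day 2 arrays, which read 10.21 and 10.25 with Dox and 10.34 and 10.52 without. Sdhc was 1.41-fold lower with Dox at day 4 (log2 change -0.50 ± 0.10, limma, adjusted p = 0.00971). Its rise of 0.34 from day 2 to day 4 without Dox had an adjusted p of 0.0339, a call lost on leaving out any of 5 arrays (adjusted p up to 0.151). Sdhd, the other membrane anchor, read 11.01 and 10.67 with Dox and 10.74 and 10.85 without at day 4, and these overlap. The iron-sulphur subunit Sdhb changed by -0.19 with Dox at day 4 (adjusted p = 0.393).

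In complex III none of 7 probes was called for Dox on either day by limma (an unadjusted p under 0.05 was reached by 2 probes at day 4 and by 0 at day 2). Of all probes, 29.9% were called at day 4 and 11.8% at day 2. The changes of the 7 probes lay between -0.30 and 0.30 at day 4. With time 4 were called without Dox (57.1%, against 38.1% of all probes). None was called for time with Dox, against 19% of all probes (unadjusted p under 0.05 for 1 probe). Uqcrc2, a core protein of the complex, read 11.53 and 11.45 in Dox-off day 4 embryoid bodies, against 10.64 and 11.16 in Dox-off day 2 embryoid bodies. The low value of 1 array sets much of this difference of 0.59 ± 0.19 (limma, adjusted p = 0.046), and the call was lost on leaving out any of 7 arrays (adjusted p up to 0.183). Uqcrfs1, the Rieske iron-sulphur protein, read 10.63 and 10.63 in Dox-off day 4 embryoid bodies, against 10.28 and 10.21 in Dox-off day 2 embryoid bodies, a rise of 0.38 (adjusted p = 0.0184). Uqcrc1, the partner core protein of Uqcrc2, fell by 0.40 on the log2 scale (adjusted p = 0.0262) and Uqcr (now Uqcr11) by 0.32 (adjusted p = 0.045). These last 3 calls were lost on leaving out any of 3 arrays for Uqcrfs1, 4 for Uqcrc1 and 6 for Uqcr (adjusted p up to 0.144). Uqcrb, which binds near the ubiquinone site, read 11.89 and 11.86 with Dox and 11.72 and 11.72 without at day 4, a change of 0.15 (adjusted p = 0.295).

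**Figure D4:**
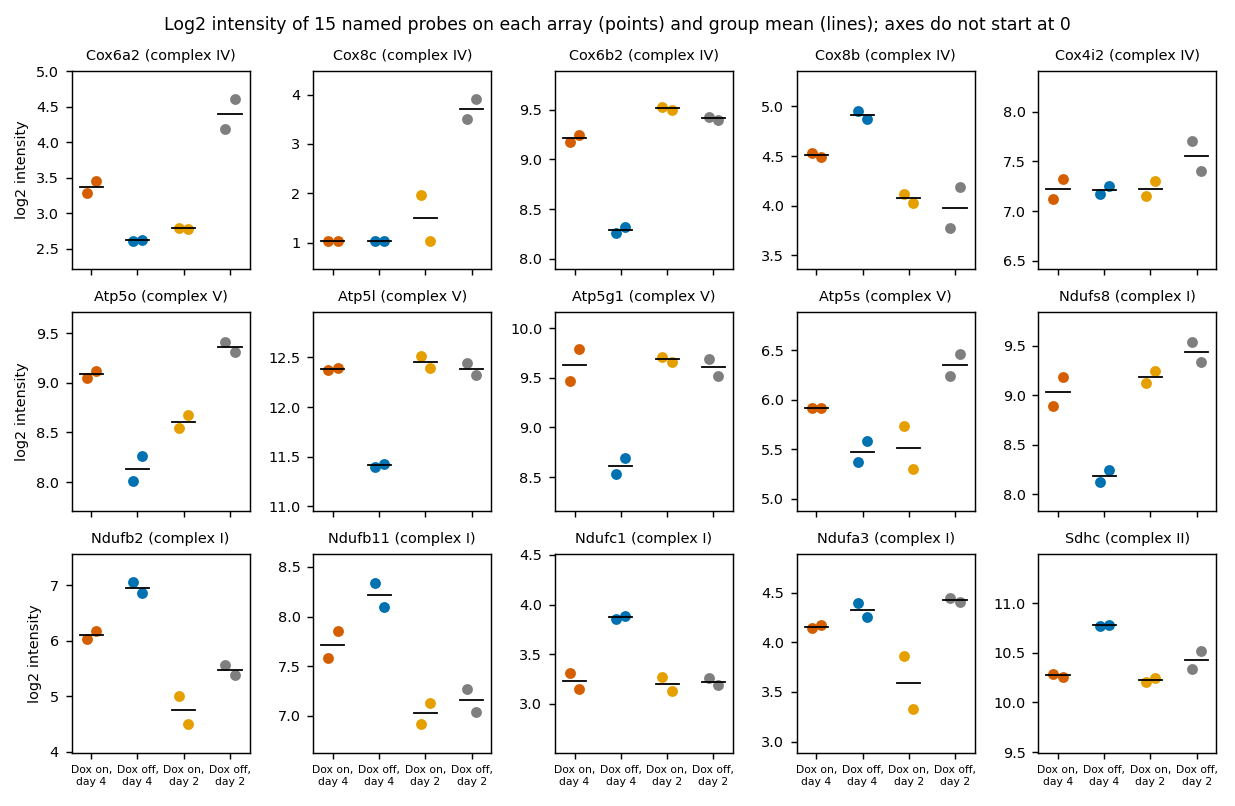
Log2 intensity of 15 probes on each array (points, 2 per group) with the group mean (line). The vertical axes differ between panels and do not start at 0. The Dox-off day 4 arrays are lowest for Cox6b2, Atp5l, Atp5g1, Atp5o and Ndufs8, and highest for Ndufb2, Ndufb11, Ndufc1, Cox8b and Sdhc.

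In complex IV, 5 of 17 probes rose and none fell with Dox at day 4, and 2 fell at day 2. The shares called in either direction were 29.4% and 11.8%, against 29.9% and 11.8% of all probes. By direction, all probes were called higher in 14.4% and lower in 15.5% at day 4, and in 5.55% and 6.25% at day 2. At day 2 the groups did not overlap and lay higher with Dox for 47.1% of the 17 probes and lower for 35.3%. The shares of all probes were 25.5% and 27.1%. Of the 5 that rose, Cox4nb is not a structural subunit. Of the complex IV isoforms restricted to certain tissues or conditions, Cox6a2, Cox6b2, Cox8b and Cox8c were called in at least 1 comparison and Cox4i2 in none. Cox6a2 (probe M200014014), the heart and skeletal muscle isoform of subunit VIa, read 3.29 and 3.45 in Dox-on day 4 embryoid bodies, against 2.61 and 2.62 in Dox-off day 4 embryoid bodies. At day 2 it read 2.79 and 2.78 with Dox, against 4.18 and 4.61 without. Dox-off day 2 embryoid bodies were highest and Dox-off day 4 embryoid bodies lowest, and no groups overlapped. With Dox it was 1.69-fold higher at day 4 (log2 change 0.76 ± 0.15, limma, adjusted p = 0.01) and 3.05-fold lower at day 2 (-1.61 ± 0.15, adjusted p = 0.00132). The difference of these effects was 2.37 ± 0.22 (adjusted p = 0.000479). The day 4 call was lost on leaving out the second Dox-on day 4 array or either Dox-off day 4 array (adjusted p up to 0.0616) and with no background correction. From day 2 to day 4 it fell by 1.78 on the log2 scale without Dox (adjusted p = 0.000152). With Dox it rose by 0.59 (adjusted p = 0.0397), a call lost on leaving out any of 6 arrays (adjusted p up to 0.173).

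Cox8c (probe M300014394), the testis isoform, was above background at day 2 only. It read 1.97 and 1.04 in Dox-on day 2 embryoid bodies, against 3.5 and 3.91 in Dox-off day 2 embryoid bodies, and was not well above background on the 4 arrays of day 4. The Dox-on day 2 arrays were far below the Dox-off ones, and 1 of them stood at the floor of 1.04. The fitted change with Dox at day 2 was -2.20 ± 0.29 (limma, adjusted p = 0.00481), and its size depends on that floor. In a fit of the day 2 arrays alone the call was lost. Without Dox it was at least 5.41-fold lower at day 4 than at day 2 (adjusted p = 0.000472, group means 1.04 and 3.71).

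Cox6b2 (probe M400003897), the testis isoform of subunit VIb, read 9.18 and 9.25 in Dox-on day 4 embryoid bodies, against 8.26 and 8.32 in Dox-off day 4 embryoid bodies. At day 2 it read 9.53 and 9.5 with Dox, against 9.43 and 9.40 without. The Dox-off day 4 arrays stood below the other 6. Cox6b2 was 1.90-fold higher with Dox at day 4 (log2 change 0.93 ± 0.09, limma, adjusted p = 0.000382), while at day 2 its change was 0.10 ± 0.09 (adjusted p = 0.552). It fell by 1.12 on the log2 scale from day 2 to day 4 without Dox (adjusted p = 0.000109). Cox8b, the muscle isoform of subunit VIII, read 4.53 and 4.49 in Dox-on day 4 embryoid bodies, against 4.95 and 4.87 in Dox-off day 4 embryoid bodies. The groups did not overlap, and the change of -0.40 ± 0.15 had an adjusted p of 0.0886. Without Dox it was 0.93 above its day 2 level, where the arrays read 3.77 and 4.19 (adjusted p = 0.00273). This probe too was dim, from 3.77 to 4.95 over the 8 arrays. Cox4i2, the isoform of subunit IV known from lung and from low oxygen, was not called in any comparison, and at day 4 it read 7.12 and 7.32 with Dox and 7.17 and 7.25 without.

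Among the ubiquitous subunits of complex IV, Cox7c rose by 0.43 and Cox8a by 0.31 with Dox at day 4 (limma, adjusted p = 0.0275 and 0.0424). Cox7c lost its call without the first Dox-on or the first Dox-off day 4 array (adjusted p up to 0.123), and Cox8a on leaving out any of the 8 arrays (up to 0.131). Cox4i1, the main isoform of subunit IV, read 13.58 and 13.57 with Dox and 13.16 and 13.58 without at day 4, and these overlap. The other ubiquitous subunits, Cox5a, Cox5b, Cox6a1, Cox6b1, Cox6c, Cox7a2 and Cox7b, were not called for Dox on either day. Their ranges over the 8 arrays went from 0.28 (Cox7a2) to 0.85 (Cox6b1), so they are not shown to be unchanged. Without Dox, Cox6c fell by 0.46 and Cox5b by 0.33 on the log2 scale from day 2 to day 4 (adjusted p = 0.0157 and 0.0338). Cox6c lost this call without the first Dox-off array of either day (adjusted p up to 0.074), and Cox5b on leaving out any of 5 arrays (up to 0.126).

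Complex V held the largest rises with Dox at day 4 among the called members, and 4 of its 16 probes rose and none fell. That is 25% called, all higher, against 29.9% of all probes, 14.4% higher and 15.5% lower. Atp5g1 (probe M300000751), a gene for subunit c, whose copies form the rotating ring, read 9.47 and 9.79 in Dox-on day 4 embryoid bodies, against 8.53 and 8.69 in Dox-off day 4 embryoid bodies. The day 2 arrays lay between 9.52 and 9.71, with the Dox states overlapping. Atp5g1 was 2.03-fold higher with Dox at day 4 (log2 change 1.02 ± 0.14, limma, adjusted p = 0.00179) and changed by 0.08 ± 0.14 at day 2 (adjusted p = 0.807). The genes Atp5g2 and Atp5g3 encode the same mature protein and did not pass the test for Dox. At day 4 Atp5g2 read 12.11 and 12.29 with Dox and 11.99 and 12.08 without, and Atp5g3 read 13.88 and 13.73 with Dox and 13.84 and 13.46 without. Both had changes of 0.16 (adjusted p = 0.303 and 0.541). Probe sequences were not used here, so crossing of signal between these genes was not tested.

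Atp5l (probe M300019653), subunit g of the membrane sector, read 12.37 and 12.39 in Dox-on day 4 embryoid bodies, against 11.40 and 11.43 in Dox-off day 4 embryoid bodies. The day 2 arrays read 12.51 and 12.39 with Dox and 12.44 and 12.32 without, so the Dox-off day 4 arrays stood apart below. Atp5l was 1.95-fold higher with Dox at day 4 (log2 change 0.96 ± 0.10, limma, adjusted p = 0.00049). Atp5o (probe M300003601), the stalk subunit that confers sensitivity to oligomycin, read 9.05 and 9.12 in Dox-on day 4 embryoid bodies, against 8.01 and 8.26 in Dox-off day 4 embryoid bodies. At day 2 it read 8.54 and 8.68 with Dox, against 9.41 and 9.31 without. Dox-on lay above Dox-off at day 4 and below it at day 2, with no overlap. The changes were 0.95 ± 0.12 at day 4 (limma, adjusted p = 0.00135) and -0.75 ± 0.12 at day 2 (adjusted p = 0.0098). The difference of 1.70 ± 0.17 had an adjusted p of 0.000721. The day 2 call was lost on leaving out the first Dox-on or the first Dox-off day 2 array (adjusted p up to 0.0683). With time Atp5o rose by 0.48 under Dox (adjusted p = 0.036), a call lost on leaving out any of 6 arrays (adjusted p up to 0.161), and fell by 1.22 on the log2 scale without Dox (adjusted p = 0.000295). Atp5c1, the gamma subunit that forms the turning shaft, rose by 0.40 with Dox at day 4 (adjusted p = 0.0422), a call lost on leaving out any of 7 arrays (adjusted p up to 0.175). The catalytic core subunits Atp5a1 and Atp5b, with changes of 0.36 and 0.16 at day 4, were not called in any comparison.

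Among the 4 probes that are not structural subunits, Atp5s read 5.92 and 5.92 in Dox-on day 4 embryoid bodies, against 5.37 and 5.58 in Dox-off day 4 embryoid bodies. At day 2 it read 5.73 and 5.30 with Dox, against 6.24 and 6.46 without. It lay higher with Dox at day 4 and lower at day 2, and the day 2 change of -0.84 ± 0.17 was called (limma, adjusted p = 0.0224), while that of 0.45 at day 4 was not (adjusted p = 0.0922). The day 2 call was lost on leaving out any of 5 arrays (adjusted p up to 0.108). Cox4nb rose by 0.39 with Dox at day 4 (adjusted p = 0.0272), a call lost without the second Dox-on or either Dox-off day 4 array (adjusted p up to 0.11). Cox7a2l read 10.85 and 10.98 in Dox-on day 4 embryoid bodies, against 10.58 and 8.39 in Dox-off day 4 embryoid bodies. The second Dox-off array alone is low, and the change of 1.43 ± 0.61 was not called (adjusted p = 0.131). The authors' deposited table gives the same spot as 302.5 on that array and 1432.7 on the other. Leaving out these 4 probes, 16 of 76 members rose and 4 fell with Dox at day 4. This is 26.3% called, against 29.9% of all probes, 14.4% higher and 15.5% lower.

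In all, 42 of the 80 members were called in none of the 4 comparisons between groups, by limma, though 13 of them reached an unadjusted p under 0.05 in at least 1. They include Sdha, Sdhb and Sdhd, the catalytic alpha and beta subunits of ATP synthase, Cox4i1 and 5 of the 6 core subunits of complex I. The share of all probes called in none of the 4 comparisons is not given here, so the count of 42 has no background beside it. The calls that held on leaving out each of the 8 arrays in turn numbered 8 of 21 for Dox at day 4 (Atp5g1, Atp5l, Atp5o, Cox6b2, Ndufc1, Ndufs4, Ndufs8 and Sdhc) and 2 of 7 at day 2 (Cox6a2 and Cox8c). For time they numbered 1 of 5 with Dox (Ndufb2) and 16 of 32 without.

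The cells of the embryoid bodies differed between the groups, as read from marker lists. Probes for 4 pluripotency genes (Nanog, Zfp42, Dppa5a and Utf1) summed to 8258 to 8568 intensity units in Dox-on day 4 embryoid bodies, against 81.3 to 92.4 in Dox-off day 4 embryoid bodies. All 4 were called higher with Dox at day 4. At day 2 they summed to 28457 to 28967 with Dox and 25677 to 27622 without. There Zfp42 (2.51) and Nanog (1.32) were called higher with Dox, while Dppa5a and Utf1 were not called. Of 7 streak and mesoderm genes 6 rose with Dox at day 4, with sums of 2520 to 2572 with Dox and 114 to 116 without. At day 2 Pdgfra (-2.50) and Fgf8 (-0.63) of this list fell with Dox and none rose. All 4 neural progenitor genes tested fell with Dox at day 4, with sums of 215 to 218 with Dox and 6646 to 7183 without. At day 2 Fabp7 (-1.69) and Pax6 (-1.55) fell with Dox, while Crabp1 and Tubb3 were not called. At day 2 all 5 endoderm genes tested fell with Dox, summing to 32.4 to 32.6 with Dox, where 2 of them were not above background, and 126 to 145 without. At day 4 Foxa2 (3.20) and Gata6 (1.40) of this list rose with Dox and Ttr (-0.69) fell, and the sums were 103 to 116 with Dox and 29.2 to 37.2 without. Of 4 cardiomyocyte and muscle genes 1, Myl7, rose with Dox at day 4, while Ckm, Myh6 and Tnnt2 were not called. The 4 genes summed to 77.2 to 83.4 with Dox and 31.9 to 34.7 without at day 4, and to 144 to 147 with Dox and 202 to 205 without at day 2. Of 3 germ cell genes, Dazl and Sycp3 rose at day 4, with sums of 517 to 547 with Dox and 190 to 206 without, and at day 2 the sums were 535 to 558 with Dox and 1048 to 1073 without. Of the blood genes listed only Gata1 was tested, and it was not called. The part of these cell differences in the changes of the respiratory subunits was not tested.

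Other genes of the same organelle were read from lists chosen with earlier results of these data known. Of 74 mitochondrial ribosome genes, which make the subunits encoded in the mitochondrial genome, 21 rose and 4 fell with Dox at day 4, with a median change of 0.13 (all probes -0.04). These are 28.4% and 5.41% of the list, against 14.4% and 15.5% of all probes. Mrpl33 (1.29), Mrps18b (1.19) and Mrps34 (1.17) rose most. At day 2, 1 rose and 2 fell (1.35% and 2.7%, against 5.55% and 6.25% of all probes). Without Dox 6 rose and 24 fell with time (8.11% and 32.4%, against 20.2% and 17.9% of all probes). Of 18 other parts of complexes III and IV, their assembly and the electron carrier, 7 rose and 1 fell with Dox at day 4 (38.9% and 5.56%). The rises were led by Cyct (1.69), the testis form of cytochrome c, Cox17 (0.96), a copper chaperone of complex IV, Cox18 (0.95), an inserter of complex IV, and Cyc1 (0.70), the cytochrome c1 of complex III. Among 17 genes of mitochondrial biogenesis and mtDNA expression, 3 rose and 1 fell at day 4 (17.6% and 5.88%), and 2 fell at day 2 (11.8%, against 6.25% of all probes). Ppargc1b, a coactivator of respiratory genes, changed by 1.14 at day 4 (limma, adjusted p = 0.000283) and by -1.0 at day 2 (adjusted p = 0.00183). Esrra, the nuclear receptor it works with, changed by 0.43 at day 4 (adjusted p = 0.0768) and by -0.64 at day 2 (adjusted p = 0.0394).

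Of 16 citrate cycle and pyruvate dehydrogenase genes 3 rose and 3 fell with Dox at day 4, 18.8% each way, near the shares of all probes. Idh3a, a subunit of isocitrate dehydrogenase, rose by 1.09, and Pdha1, the catalytic subunit of pyruvate dehydrogenase, fell by 0.81 on the log2 scale. Of 11 genes of the switch between respiration and glycolysis in low oxygen, 3 rose and 3 fell at day 4 (27.3% each way) and 5 fell at day 2 (45.5%). Pdk1, a kinase that holds back pyruvate dehydrogenase, rose by 1.49 at day 4 (limma, adjusted p = 7.97e-05), and Ldha rose by 1.45. The falls at day 4 were those of Bnip3l (-1.18), Mxi1 (-0.60) and Pdk3 (-0.50). Egln3, an oxygen-sensing prolyl hydroxylase, changed by 3.54 at day 4 and by -2.55 at day 2 (adjusted p = 0.00016 and 0.00254). Of 12 assembly factors of complexes I, II and V, 2 rose and 3 fell at day 4 (16.7% and 25%), and of 20 carriers, porins and antioxidant genes, 3 rose and 3 fell (15% each way).

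Outside the members, the 5 named probes whose levels followed the members' mean most closely over the 8 arrays were Slc16a3 (r = 0.991), 2810046M22Rik (0.983), 5730410I19Rik (0.982), Dnase2a (0.981) and Rasd2 (0.979). The 8 points share their scaling and fall into 4 groups, so these values only describe likeness. Slc16a3, an exporter of lactate, changed by 2.75 with Dox at day 4, where the members' median change was 0.18.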

How the data were processed

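RNA of 8 samples was hybridised to single-colour arrays (Cy5, read at 635 nm). Per the file headers, the deposited scanner files give a spot intensity and a second, local intensity for each spot, and a table of the authors' processed values was deposited on a linear intensity scale. For scanner software and genome build the sources used here give no name. On a log scale the second column correlated with the spot at 0.984 to 0.998, so the mean of 2734 to 2736 blank spots was subtracted instead. Values were quantile-normalized, set to a floor of 2 blank SDs (log2 1.04) and put on the log2 scale. Probes above the blank mean by 2 SDs on at least 2 arrays were tested (21661 of 23473), and 9 probes with a flagged spot were left out. The number of arrays, 2 a group, limits the precision.

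All 8 arrays entered 1 limma fit (limma 3.58.1, R 4.3.3, jsonlite 2.0.0, matplotlib 3.10.9, pandas 2.3.3), with Benjamini-Hochberg adjustment over all probes tested and a threshold of 0.05. In simulated data for Dox at day 4, 100 of the 21661 probes were changed. The fit recovered 0 of them at a change of 0.4 log2 units and 34 at a change of 1. Far fewer probes were changed than the 29.9% called here, which makes the adjusted threshold stricter. These counts therefore do not give the sensitivity of the fit in these data. With 2 arrays a group, a member not called is not shown to be unchanged. Gene symbols are those of the platform annotation, given for 16631 probes, and promoters are RefSeq's. Probe positions were not used here.

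The members and lists were chosen with earlier results of these data known. Named members were the 6 largest rises and falls called for Dox on each day, the 5 largest in the other comparisons, the member with the highest signal in each complex and the tissue-restricted isoforms. Other members named in the text were chosen after their values were seen. Alternatives covered background, scaling, filter, floor, variance trend, a replicate block, a fit of the compared groups alone and leaving out each array. Scaling to the median of the probes outside the member list was chosen after seeing the data.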

Additional observations from a re-analysis of the deposited data

Results flagged for a closer look

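The difference of the Dox effect, day 4 minus day 2, passed limma's test for 9 of the members named by rule. The SE follows each value. The muscle isoform Cox6a2, a dim probe (2.61 to 4.61 over the 8 arrays, floor 1.04), differed by 2.37 ± 0.22. The fitted 2.20 ± 0.41 of the testis isoform Cox8c says nothing of day 4, where all arrays stood at the floor, and is its day 2 change with the sign turned. The ATP synthase genes differed by 1.70 ± 0.17 (Atp5o), 0.94 ± 0.20 (Atp5g1) and 0.89 ± 0.14 (Atp5l), and the associated factor Atp5s by 1.28 ± 0.24. Ndufs8 of complex I differed by 1.09 ± 0.19 and the testis isoform Cox6b2 by 0.82 ± 0.13. Ndufc1 was the negative one, with -0.62 ± 0.15. The calls of Atp5g1 and Ndufc1 were lost on leaving out any of 3 and any of 6 of the 8 arrays, with adjusted p up to 0.0565 and 0.0829. That of Ndufc1 was also lost with no background correction, with cyclic loess and with an intensity trend. These differences use the same arrays as the Dox comparisons of each day.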

How the results depend on the processing

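With 2 arrays a group the precision is limited, and Cox8c at day 4 and Uqcrq at day 2 stood at the floor and have only bounds there. Of 46 named calls, 29 kept their side of the threshold on leaving out each array in turn and 33 kept it under every other alternative but normexp. Leaving out 1 array gave 11 to 17 members called for Dox at day 4, 2 to 5 at day 2, 9 to 11 for the difference of the Dox effect, 2 to 5 for time with Dox and 17 to 30 for time without Dox.

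Without background correction, 37 members were called with Dox at day 4, 11 with Dox at day 2, 28 in the difference and 13 for time with Dox. An intensity trend in the variance gave 22 for the difference and 12 for time with Dox, and no filter on dim probes gave 10 for time with Dox. A fit of the compared groups alone gave 11 for Dox at day 4 and 3 at day 2. Scaling to the 75th percentile moved the share of higher calls to 14.6% for time without Dox, against 25% with quantile normalization, and to 60% for time with Dox, against 80%. Cyclic loess gave 66.7% for time with Dox.

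Deviations of samples with the same replicate number correlated at -0.27 to 0.23, over 0.1 in 1 of 6 pairs of groups. Whether such samples share a batch or culture cannot be told from these values. With a replicate block 13 members were called with Dox at day 4, 5 with Dox at day 2, 12 in the difference, 25 for time without Dox and 4 for time with Dox. For Dox at day 4 the block left 12.5% of members called higher, against 13.2% of all probes, and 3.75% called lower, against 14.1%.

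Normexp on the second intensity column gave 0 members called in all 5 comparisons by limma and turned these values. For the median of members, Dox at day 4 gave -0.0040 and day 4 against day 2 without Dox gave 0.039. In Atp5s, Dox at day 2 gave 0.0099, in Ndufa3, Dox at day 2 gave 0.017, and in Ndufb2, Dox at day 2 gave 0.091. For Dox at day 4 the values were -0.11 for Atp5o, Dox at day 4, 0.087 for Ndufb2, Dox at day 4, -0.26 for Atp5g1, Dox at day 4, -2.84 for Atp5l, Dox at day 4, -0.091 for Ndufs8, Dox at day 4, 0.0093 for Ndufc1, Dox at day 4 and 0.085 for Ndufb5, Dox at day 4. For the difference they were -0.00091 for Atp5o and -0.014 for Ndufs8. For time without Dox they were 0.0048 for Cox8c, 0.058 for Atp5s, 0.19 for Atp5g1, 0.057 for Ndufs8, -0.021 for Ndufb5, -1.51 for Uqcrc2 and 0.38 for Ndufa11. For time with Dox they were -0.41 for Atp5o, -0.19 for Ndufb11 and 0.0048 for Ndufa11. The cause of these changes was not tested.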
